A study of Mus musculus with 16 samples.

Results

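The 5 subunit genes of the enzyme and the channel at the end of the rod light response were followed across age: Pde6a, Pde6b and Pde6g, which encode the rod cGMP phosphodiesterase, and Cnga1 and Cngb1, which encode the rod cGMP-gated cation channel. They were taken by symbol from the authors' table of gene CPM (a level per gene, scaled to a common library total), where these 5 were found among 45594 genes. All 5 were also among the 12177 genes that passed the filter on low values, at least 5 CPM in at least 4 libraries, so no member was lost to it.

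RNA came from rod photoreceptors of C57BL/6J mice carrying Nrlp-GFP, a green fluorescent reporter under the Nrl promoter, Nrl being a transcription factor needed to make rods. Retinas were taken at 3, 12, 18 and 24 months (3M, 12M, 18M and 24M), the fluorescent cells were sorted, and 4 libraries were sequenced per age, which the design text calls biological replicates. The protocol also names reporter mice without Nrl, but all 16 libraries carry the label of the reporter strain alone, and all 4 groups share the reporter. The design asks how the rod transcriptome differs with age, and 3M is the youngest group, against which the later ages were compared. The sort limits the sample to cells in which the Nrl promoter was active enough to be gated. The labels require a purity over 98% on resorting. The sources used here do not say if replicates are single mice or pools, so p-values measure the spread between these libraries.

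In darkness cGMP holds the channel of the rod outer segment open, and sodium and calcium enter. Light acts through the visual pigment and transducin, whose alpha subunit takes the inhibitory gamma subunits (Pde6g) off the catalytic alpha and beta subunits (Pde6a and Pde6b), so that cGMP is hydrolysed and the channel, built of Cnga1 and Cngb1, closes. Loss of function of the catalytic subunits or of either channel subunit is a known cause of retinitis pigmentosa, in which rods degenerate.

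Libraries held 20579144 to 28791777 estimated counts. The summed level of 4 rod markers (Nrl, Nr2e3, Gnat1 and Sag) was 12151 ± 665 CPM at 3M and 10134 ± 1516 CPM at 24M (SD, n = 4), with ranges of 11309 to 12722 and 8982 to 12244. Summed levels of other retinal cells were small beside it. The 10 cone markers summed to 83.2 ± 23.2 and 101.0 ± 11.5 CPM (ranges 65.3 to 116 and 84.3 to 110), the 8 bipolar markers to 393 ± 21.6 and 389 ± 23.4 (371 to 422 and 356 to 409), and the 8 Müller glia markers to 157 ± 47.7 and 216 ± 48.4 (112 to 223 and 149 to 251). The 5 microglial markers summed to 2.45 ± 0.665 and 2.76 ± 0.589 CPM (1.47 to 2.87 and 2.20 to 3.58), and of these Tmem119 was at 0 in every 3M library. Amacrine and horizontal markers (6) ranged from 117 to 140 at 3M and 99.3 to 134 at 24M, endothelial markers (5) from 24.1 to 31.9 and 28.9 to 33.4, ganglion markers (5) from 7.88 to 13.4 and 9.73 to 15.3, and pigment epithelium markers (5) from 2.77 to 4.80 and 2.35 to 3.54 CPM. A few genes carry these sums. Of the bipolar sum, Prkca held 210 CPM at 3M and 196 at 24M and Otx2 146 and 151, while Grm6, Pcp2, Cabp5 and Isl1 stood between 1.69 and 4.70 at both ages, and Gnb3, at 16.3 and 31.9 CPM, held most of the difference in the cone sum. The sums are therefore no measure of the number of cells of a type. The part of other cell types in the results on the 5 genes was not tested. In RNA of pooled cells, fewer cells of a type and less RNA per cell cannot be told apart.

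All 5 genes were among the most abundant protein-coding transcripts of these rods. On a scale per transcript length (TPM, counts divided by annotated length and scaled to a common total), Pde6b had a mean level of 1026 ± 143 over the 16 libraries (SD, n = 16) and ranked 7 among 21791 protein-coding genes. Pde6a followed at 647 ± 104 TPM (rank 13), then Pde6g at 361 ± 31.8 (rank 31), Cnga1 at 310 ± 112 (rank 48) and Cngb1 at 253 ± 39.4 (rank 68). The intervals of mean ± SD did not overlap for Pde6b and Pde6a or for Pde6a and Pde6g. Those of Pde6g with Cnga1 and of Cnga1 with Cngb1 overlapped. The lowest Pde6b value (833 TPM, 24M replicate 3) lay under the highest Pde6a value (854 TPM, 18M replicate 3), but these are different libraries. Within each of the 16 libraries Pde6b was above Pde6a, with a ratio of Pde6a to Pde6b from 0.5875 to 0.6895. The order Pde6b, Pde6a, Pde6g held at each of the 4 ages by mean TPM, with Pde6b at 1021 ± 51.0 and Pde6a at 636 ± 51.8 at 3M, and 979 ± 127 and 624 ± 95.8 at 24M (SD, n = 4).

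The cone counterparts of these genes were present at low levels. Of the cone catalytic subunit Pde6c there were 5.77 ± 3.42 CPM at 3M, of the cone inhibitory subunit Pde6h 25.8 ± 3.97, and of the cone channel subunits Cnga3 and Cngb3 8.10 ± 0.355 and 1.26 ± 1.00 (SD, n = 4). Of the 4, Pde6c, Pde6h and Cnga3 passed the filter and none of these 3 was called at 24M, with a median log2 difference of 0.088 against 0.011 over all genes tested.

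Start-site regions of the members show what lies in front of these genes. The 250 bases before the RefSeq start on GRCm38.p6 are printed for 3 of the 5 genes, Pde6b, Cnga1 and Cngb1, from the gene's own strand, 5′ to 3′. Capitals mark the letters TAATCC, a core bound by Crx and other homeodomain factors, and TGCTGA, part of the element bound by Nrl. Both strands were searched.
Pde6b (chr5:108388123-108388372, plus strand): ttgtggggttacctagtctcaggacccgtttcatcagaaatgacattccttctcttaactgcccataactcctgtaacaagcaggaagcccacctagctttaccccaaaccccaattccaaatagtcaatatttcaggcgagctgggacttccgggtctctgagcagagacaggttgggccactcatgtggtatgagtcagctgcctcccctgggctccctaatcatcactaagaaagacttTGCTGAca
Cnga1 (chr5:72642753-72643002, minus strand): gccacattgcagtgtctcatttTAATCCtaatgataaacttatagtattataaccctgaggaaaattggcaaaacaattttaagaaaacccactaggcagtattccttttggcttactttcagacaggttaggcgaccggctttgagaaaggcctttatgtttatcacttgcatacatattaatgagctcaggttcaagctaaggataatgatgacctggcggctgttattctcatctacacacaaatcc
Cngb1 (chr8:95306586-95306835, minus strand): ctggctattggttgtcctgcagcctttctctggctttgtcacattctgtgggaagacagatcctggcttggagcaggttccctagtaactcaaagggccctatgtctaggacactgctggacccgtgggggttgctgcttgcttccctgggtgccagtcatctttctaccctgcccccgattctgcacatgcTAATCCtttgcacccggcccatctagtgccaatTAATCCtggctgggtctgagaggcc
The Pde6b window holds TGCTGA 8 to 3 bases before the start. The Cnga1 window holds TAATCC 228 to 223 bases before it. In the Cngb1 window TAATCC occurs at 58 to 53 and again at 25 to 20 bases before the start. Of 32851 RefSeq windows of the same length, 6.25% hold TAATCC or its reverse complement GGATTA, 16.1% hold TGCTGA or TCAGCA, and 0.962% hold both. A match describes letters only.

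Pde6a, the catalytic alpha subunit (ENSMUSG00000024575, chromosome 18, 61220315 to 61289924, plus strand, GRCm38), was lower in every 24M library than in any 3M library on TMM-scaled CPM, by a small amount that did not pass the test over all genes. Its 4 libraries at 3M stood at 4118, 4748, 4345 and 4482 CPM. At 12M they stood at 3877, 4209, 4083 and 4356, and at 18M at 3947, 4176, 3887 and 4074. Both middle ages overlapped 3M. The 24M libraries stood at 3733, 4059, 3921 and 3480 CPM, so that the highest of them lay under 4118. From 3M to 24M the means ± SD were 4423 ± 263, 4131 ± 203, 4021 ± 129 and 3798 ± 251 CPM (n = 4 each). The log2 fold change at 24M was -0.22 (SE 0.086, 95% interval -0.40 to -0.04, unadjusted p = 0.022, edgeR adjusted p = 0.2226). Per month the fitted linear change was -0.0101 on the log2 scale (unadjusted p = 0.013, edgeR adjusted p = 0.1609). One transcript, Pde6a-201 with 22 exons, held 99.58% of the gene's estimated counts on average, so the gene value is close to that of this transcript. The pseudogene Rps2-ps10 lies on the opposite strand within an intron of Pde6a and averaged 1467 estimated counts per library, against 98289 for Pde6a.

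Pde6b, the catalytic beta subunit (ENSMUSG00000029491, chromosome 5, 108388391 to 108432397, plus strand, GRCm38), showed the same order of its 3M and 24M libraries. At 3M it stood at 4215, 4294, 4334 and 4532 CPM in the 4 libraries. At 12M the values were 3868, 3753, 3883 and 4433, and at 18M they were 4033, 4023, 3704 and 4208. One 12M library, replicate 4, lay among the 3M libraries, while every 18M library lay under the lowest 3M value by a margin as small as 4208 against 4215. The 24M libraries stood at 3372, 3670, 4039 and 3673 CPM, all under 3M. Means ± SD ran 4344 ± 135, 3984 ± 305, 3992 ± 210 and 3688 ± 273 from 3M to 24M (n = 4 each). At 24M the log2 fold change was -0.24 (SE 0.090, 95% interval -0.43 to -0.04, unadjusted p = 0.019, edgeR adjusted p = 0.204). The linear term was -0.0103 per month (unadjusted p = 0.017, edgeR adjusted p = 0.1887).

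On TMM-scaled CPM both catalytic genes thus had no overlap between 3M and 24M, where 5.32% of the 12177 tested genes had every 24M library under every 3M library. The edgeR test called 4.25% of genes at 24M, and none of the 5 members. At an unadjusted p under 0.05 it took 2 of the 5, Pde6a and Pde6b, against 14% of all genes. DESeq2 called the same 2 genes at 24M (adjusted p = 0.016 for Pde6a and 0.022 for Pde6b), where it called 6.34% of all genes, and limma voom called none. Limma voom with sample quality weights, which gives less weight to libraries that deviate, called both and Pde6g as well (adjusted p = 0.0044, 0.002 and 0.0038), where it called 27.2% of all genes. The call on these genes therefore rests on the test used.

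Their order also rests on the scale. On the authors' CPM of all 16 libraries Pde6a overlapped, with 24M replicate 3 at 4028 and 3M replicate 1 at 3997. Pde6b stayed apart there, with its highest 24M library at 4105 and its lowest 3M library at 4111. On TPM, a scale per length without TMM factors, Pde6a ranged from 577.5 to 689.4 at 3M and from 501.8 to 735.3 at 24M, and Pde6b from 967.0 to 1090.1 and from 833.1 to 1086.8, so that both overlapped. The median tested gene was 0.16 higher at 24M on log2(TPM + 1). Against that shift Pde6a stood at -0.20, Pde6b at -0.23, Pde6g at -0.25, Cnga1 at -0.33 and Cngb1 at 0.01, and without it at -0.04, -0.07, -0.09, -0.17 and 0.17. Limma on this scale, added after the data were seen, called 1.68% of genes at 24M and no member. Cngb1 thus had a positive sign at 24M on TPM, near the shift of the median gene. Its TPM ranged from 207.6 to 260.6 at 3M and from 239.9 to 311.9 at 24M, so that it overlapped. On the scales of counts and CPM all 5 members had a negative sign at 24M under all 29 settings.

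**Figure D1:**
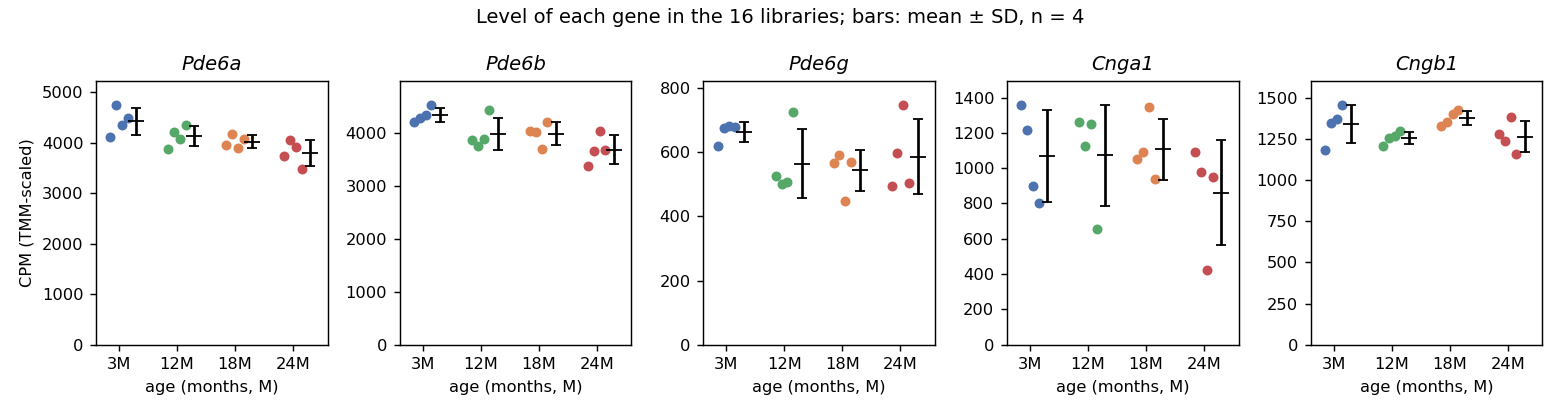
Level of each of the 5 genes (vertical axis, CPM scaled with TMM factors, from 0) in the 4 libraries of each age (horizontal axis, months); points are libraries, bars the mean ± SD. Pde6a and Pde6b have every 24M library under every 3M library, and Cnga1 has the widest spread, with its lowest library at 423 CPM at 24M.

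Within Pde6b, the shares of its transcripts lay apart between 3M and 24M with no overlap. The 22-exon coding transcript Pde6b-201 and the 18-exon Pde6b-203, which GENCODE annotates as a retained-intron transcript, together held nearly all of the gene's estimated counts, and Pde6b-202, a short retained-intron transcript at the 3′ end, held 4.42% on average. Pde6b-203 keeps 4 introns of Pde6b-201: intron 10 (chr5:108423584-108424296, 713 bases), intron 14 (chr5:108426908-108427106, 199 bases), intron 17 (chr5:108427905-108428179, 275 bases) and intron 18 (chr5:108428244-108428456, 213 bases), on the plus strand of GRCm38. Their splice sites are shown because unspliced sequence across them is what separates the transcripts. Each line gives 20 bases on either side of the boundary, 5′ to 3′, with the first or last 2 intron bases in capitals.
Pde6b intron 10 donor: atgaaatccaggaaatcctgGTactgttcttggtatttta
Pde6b intron 10 acceptor: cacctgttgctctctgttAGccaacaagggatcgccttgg
Pde6b intron 14 donor: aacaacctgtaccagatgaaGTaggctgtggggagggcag
Pde6b intron 14 acceptor: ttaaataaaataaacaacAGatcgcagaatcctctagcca
Pde6b intron 17 donor: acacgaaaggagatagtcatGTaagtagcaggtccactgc
Pde6b intron 17 acceptor: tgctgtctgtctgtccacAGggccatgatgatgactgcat
Pde6b intron 18 donor: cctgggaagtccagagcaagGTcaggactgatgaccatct
Pde6b intron 18 acceptor: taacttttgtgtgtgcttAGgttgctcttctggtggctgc
All 4 kept introns begin with GT and end with AG. Read in the frame of Pde6b-201, the transcript Pde6b-203 meets a stop inside intron 10, after 496 of the 856 codons of the annotated frame. The stretch from the start of that intron to the stop (chr5:108423584-108423673) is shown with the GT and the stop in capitals.
Pde6b intron 10 to the stop: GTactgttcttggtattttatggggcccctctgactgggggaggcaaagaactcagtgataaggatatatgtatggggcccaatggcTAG

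Pde6b-203 held 15.66%, 15.67%, 17.18% and 15.40% of Pde6b's estimated counts in the 4 libraries of 3M. It held 20.82%, 19.04%, 19.33% and 16.42% at 12M, and 18.88%, 17.82%, 20.58% and 20.05% at 18M. At 24M it held 21.17%, 20.06%, 22.17% and 23.10%. Every 18M and 24M library lay above every 3M library, and at 12M replicate 4 lay within the 3M range. Between 24M and 3M, 4.6% of retained-intron transcripts lay apart in this direction, and between 18M and 3M 5.5% did. The mean share went from 15.98% ± 0.811 to 21.6% ± 1.31 (SD, n = 4), a difference of 5.65 percentage points with an exact two-sided permutation p = 0.0286, the smallest that 4 against 4 libraries allow, and a Benjamini-Hochberg value of 0.0629 over the 11 member transcripts tested, those with a mean share of at least 5% outside Pde6a. Pde6b-201 went the other way, from 80.0% ± 0.944 to 73.6% ± 1.43 (exact permutation p = 0.0286, adjusted 0.0629). The 2 shares are parts of 1 whole and are not separate evidence.

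As a level, Pde6b-201 averaged 3527 ± 131 CPM at 3M and 2711 ± 210 CPM at 24M, and Pde6b-203 averaged 704 ± 32.9 and 797 ± 85.4 CPM (SD, n = 4). In the edgeR test per transcript, which was added after the data were seen, the log2 fold change at 24M was -0.38 for Pde6b-201 (SE 0.091, adjusted p = 0.056) and 0.18 for Pde6b-203 (adjusted p = 0.503). That test called 1.33% of 38011 transcripts at 24M and none of the members' transcripts. The test of transcript usage within a gene (edgeR's diffSpliceDGE, also added after the data were seen) gave Pde6b-203 a log2 difference relative to its gene of 0.44 (unadjusted p = 0.026, adjusted p = 1), with 0.233% of 33437 transcripts called.

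Retained-intron transcripts give the scale for this difference. Of 6197 such transcripts with a mean share of at least 5%, 4.6% had every 24M library above every 3M library and 2.02% had every one under. The median difference over them was 0.398 percentage points, and Pde6b-203 ranked 180 by its difference. Transcripts of all kinds with a share of 5% to 95% were balanced, at 3% higher and 2.99% lower. The percent of a library's counts on retained-intron transcripts ranged from 8.28% to 9.11% at 3M and from 8.51% to 9.64% at 24M, and the part of this in the Pde6b-203 share was not tested.

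Pde6g is the inhibitory gamma subunit (ENSMUSG00000025386, chromosome 11, 120447605 to 120453500, minus strand, GRCm38). On TMM-scaled CPM it had a tight group at 3M and wide groups later. Its 3M libraries stood at 618, 674, 682 and 680 CPM. At 12M they stood at 525, 502, 507 and 727, and at 18M at 567, 591, 449 and 570. All 18M libraries lay under all 3M libraries, but 12M replicate 4 lay above them. At 24M the values were 495, 599, 748 and 506 CPM, and replicate 3 was the highest of all 16 libraries. In order of age the means ± SD were 664 ± 30.4, 565 ± 108, 544 ± 64.2 and 587 ± 117 CPM (n = 4 each). This order of spread did not hold on TPM. There the SD of the 3M group, 29.6 TPM, exceeded that of the 12M group (20.7) and that of the 24M group (9.78). Only the 18M group was wider, with an SD of 42.5 TPM. The log2 fold change was -0.29 at 18M (SE 0.145, 95% interval -0.60 to 0.02, unadjusted p = 0.068, edgeR adjusted p = 0.4536) and -0.18 at 24M (SE 0.145, 95% interval -0.49 to 0.13, edgeR adjusted p = 0.691). Without 24M replicate 3 and the other libraries left out of the authors' normalized table (12M replicate 4 and 18M replicate 3), the value at 24M was -0.32 (adjusted p = 0.0088).

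The shares of Pde6g transcripts also lay apart between these ages. The coding transcript Pde6g-201 held 61.4% ± 1.79 of the gene's estimated counts at 3M and 55.1% ± 2.68 at 24M, and the processed transcript Pde6g-203, whose model has 1396 bases that are intron in Pde6g-201, held 35.1% ± 1.96 and 41.4% ± 2.43 (SD, n = 4). Pde6g-203 stood at 35.13%, 32.73%, 37.53% and 35.01% in the 3M libraries and at 42.36%, 38.12%, 41.18% and 43.84% at 24M. Both ages stayed apart, by a margin of 37.53% against 38.12% (exact two-sided permutation p = 0.0286, adjusted 0.0629), as 3% of transcripts did in this direction. In the usage test Pde6g-203 had an adjusted p of 1.

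**Figure D2:**
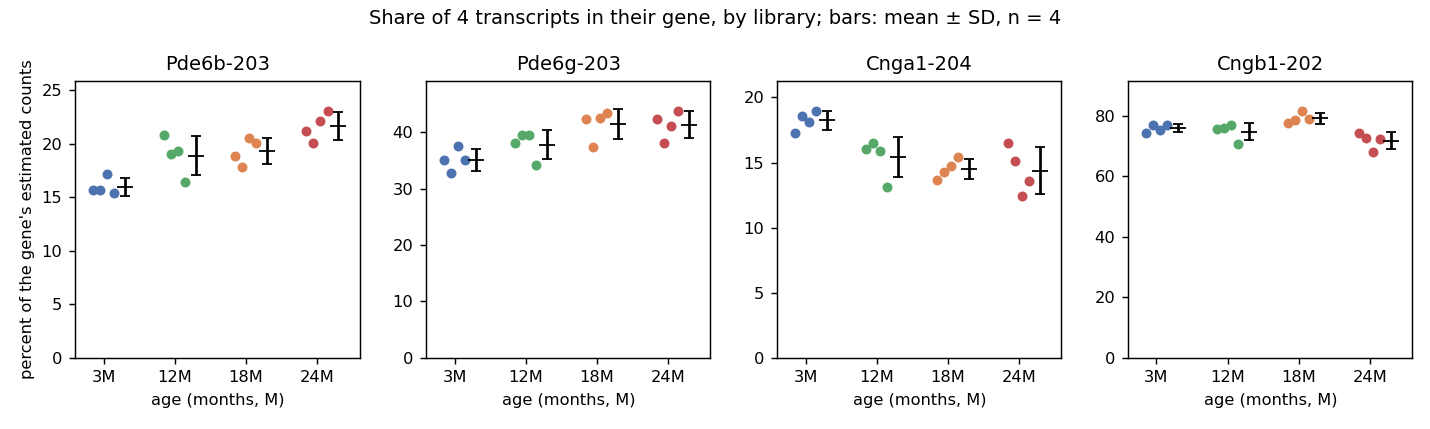
Share of 4 transcripts in their gene's estimated counts (vertical axis, percent, from 0) in the 4 libraries of each age (horizontal axis, months); points are libraries, bars the mean ± SD. Pde6b-203 and Pde6g-203 lie higher at 24M than in any 3M library, Cnga1-204 lies lower, and Cngb1-202 overlaps between these ages.

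Cnga1, the channel subunit that forms a working pore on its own (ENSMUSG00000067220, chromosome 5, 72603696 to 72644275, minus strand, GRCm38), varied more between libraries of 1 age than between ages. At 3M it stood at 1358, 1214, 900 and 805 CPM. At 12M it stood at 1262, 1123, 1248 and 655, and at 18M at 1055, 1091, 1345 and 937. At 24M the values were 1091, 980, 423 and 947 CPM. All ages overlapped, and 2 libraries, 12M replicate 4 and 24M replicate 3, were under every other library of the series. These are the same 2 libraries in which Pde6g was highest. Means ± SD were 1069 ± 260, 1072 ± 285, 1107 ± 172 and 860 ± 298 CPM (n = 4 each), and the coefficient of variation over 16 libraries was 24.53%, against 7.41% for Pde6a, 8.03% for Pde6b, 15.4% for Pde6g and 6.78% for Cngb1. The log2 fold change at 24M was -0.31 with a 95% interval from -0.88 to 0.26 (edgeR adjusted p = 0.7041), a range that holds losses and gains alike. Without 24M replicate 3 it was -0.09. A pseudogene on the same strand, Gm5297, lies within an intron of Cnga1 and averaged 1429 estimated counts against 24894 for Cnga1, and shares no exon base with it.

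Among Cnga1 transcripts, Cnga1-201 held 50.43% of the estimated counts, Cnga1-205 25.29% and Cnga1-204 15.64% on average, all annotated as coding. Cnga1-204 stood at 17.31%, 18.58%, 18.09% and 18.99% at 3M and at 16.47%, 15.10%, 12.42% and 13.56% at 24M. No 24M library reached the lowest 3M library, as in 2.99% of transcripts with a share of 5% to 95% (means 18.2% ± 0.721 and 14.4% ± 1.77, SD, n = 4, exact two-sided permutation p = 0.0286, adjusted 0.0629). Cnga1-204 had a value of -0.63 on the log2 scale in the edgeR test per transcript (SE 0.315, adjusted p = 0.5371).

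Cngb1 (ENSMUSG00000031789, chromosome 8, 95239045 to 95306585, minus strand, GRCm38) is the modulatory channel subunit, whose long form carries a glutamic acid-rich part. On TMM-scaled CPM it had the lowest coefficient of variation of the 5 genes, 6.78% against 7.41% for Pde6a. On TPM it was less steady than Pde6g, at 253 ± 39.4 against 361 ± 31.8 (SD, n = 16). The Cngb1 libraries stood at 1181, 1347, 1368 and 1455 CPM at 3M and at 1204, 1252, 1264 and 1296 at 12M. They stood at 1327, 1350, 1401 and 1425 at 18M and at 1278, 1235, 1380 and 1156 at 24M. Every later age overlapped 3M. On TMM-scaled CPM each 18M library lay above each 12M library, where 0.895% of genes did so, with a log2 fold change of 0.13 (95% interval -0.04 to 0.31, edgeR adjusted p = 1). On TPM these 2 ages overlapped, at 203.3 to 287.5 for 12M and 207.2 to 340.5 for 18M. On the authors' CPM 12M replicate 4, at 1435, lay above every 18M library, the highest being 1340. The comparison of 18M with 12M called 0.00821% of genes by edgeR, 1 gene in all, and no member. At an unadjusted p under 0.05 it took 2.23% of genes and no member, and DESeq2 called 12 genes and no member. At 24M against 3M the log2 fold change was -0.08 (95% interval -0.26 to 0.09, edgeR adjusted p = 0.7692), an interval narrower than that of Cnga1.

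The 33-exon Cngb1-202 held 75.9% ± 1.37 of the gene's estimated counts at 3M. At 24M it held 71.8% ± 2.74 (SD, n = 4; difference by exact two-sided permutation p = 0.0571, adjusted 0.1048). A 13-exon coding transcript from the 5′ part of the gene, Cngb1-201, held 8.91% ± 0.887 and 10.6% ± 2.49 (exact permutation p = 0.2857, adjusted 0.3492). The 2 libraries with the highest Cngb1-201 share were 12M replicate 4 at 14.5% and 24M replicate 3 at 13.0%, the same that were lowest in Cnga1. The lowest was 18M replicate 3 at 3.34%.

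At 12M against 3M edgeR called 1.39% of genes, and at 18M 2.64%, with no member among them. None had an unadjusted p under 0.05 either, which 9.15% of genes had at 12M and 12.4% at 18M. The quality-weighted fit called Pde6g and Pde6b at 12M (adjusted p = 0.0012 and 0.012), where it called 47.9% of all genes, and none at 18M, and DESeq2 and unweighted limma voom called none at either age. Log2 fold changes at 12M were -0.10 for Pde6a, -0.12 for Pde6b, -0.23 for Pde6g, 0.00 for Cnga1 and -0.09 for Cngb1. Those at 18M were -0.14, -0.12, -0.29, 0.05 and 0.04 in the same order. On TMM-scaled CPM, every 18M library of Pde6b and of Pde6g lay under every 3M library, where 6.46% of genes did so. On the authors' CPM Pde6g also lay apart, but Pde6b overlapped, at 4113 in 18M replicate 4 and 4111 in 3M replicate 1. On TPM both genes overlapped between these ages. The 3 comparisons share the 3M libraries, so they are not independent of each other.

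Between 24M and 18M no gene of the 12177 was called by edgeR (0%), 680 or 5.58% had an unadjusted p under 0.05, and DESeq2 called 35. No member was called by either tool or had an unadjusted p under 0.05, and their log2 fold changes ranged from -0.36 for Cnga1 to 0.11 for Pde6g. The F-test for any difference among the 4 ages called 2.82% of genes by edgeR and no member. None passed at an unadjusted p, as 10.8% of genes did (adjusted p from 0.6619 for Pde6b to 0.8899 for Cnga1). The quality-weighted fit of that test called 4 of the 5, all but Cnga1, and 44.6% of all genes. The linear term called 4.8% and no member by edgeR. At an unadjusted p it took Pde6a and Pde6b, where 14.6% of genes passed, and DESeq2 called those 2 and 6.5% of all genes.

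**Figure D3:**
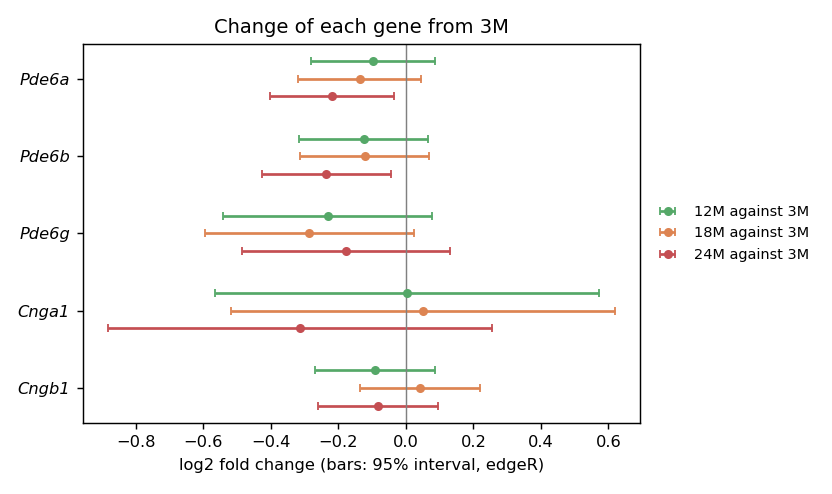
Fitted log2 fold change of each gene at 12M, 18M and 24M against 3M (horizontal axis, bars: 95% interval of edgeR, not adjusted over genes). The intervals of Pde6a and Pde6b at 24M lie below 0, while those of Pde6g, Cnga1 and Cngb1 cross it and that of Cnga1 at 24M runs from -0.88 to 0.26.

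The authors' deposited table of comparisons gives, for 11826 genes, an F-test over the ages with 26.7% of genes at an adjusted p under 0.05. In the authors' deposited table Pde6g had log2 differences of -0.42, -0.28 and -0.39 at 12M, 18M and 24M (adjusted p = 0.0052) and Pde6b of -0.19, -0.09 and -0.29 (adjusted p = 0.016). In the authors' deposited table Pde6a had an adjusted p of 0.11, Cngb1 of 0.26 and Cnga1 of 0.4. Their normalized table holds 13 of the 16 libraries and lacks 12M replicate 4, 18M replicate 3 and 24M replicate 3. With the edgeR test run on those 13 libraries, 3 members were called at 24M: Pde6a at -0.23 (adjusted p = 0.046), Pde6b at -0.28 (adjusted p = 0.011) and Pde6g at -0.32 (adjusted p = 0.0088). In that fit 2843 genes, 23.6% of those tested, were called at 24M, against 518 with all 16 libraries.

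Ratios between subunits compare the parts of each complex with each other. Counts of Pde6a over Pde6b gave 1.02 ± 0.059 in 3M libraries and 1.03 ± 0.0856 in those of 24M (SD, n = 4), with a log2 difference of 0.02 (exact two-sided permutation p = 0.9429). Per transcript length it was 0.623 ± 0.0372 and 0.638 ± 0.0496. Pde6g over the sum of both catalytic genes gave 0.0757 ± 0.002 (3M), 0.0678 ± 0.0059 (18M) and 0.0779 ± 0.0112 (24M), and the log2 difference was -0.16 at 18M (exact permutation p = 0.0286, adjusted 0.2571 over 9 ratio tests) and 0.03 at 24M (p = 0.9143, exact). Cnga1 over Cngb1 gave 0.815 ± 0.266 in 3M libraries and 0.693 ± 0.259 in those of 24M (log2 difference -0.29, exact permutation p = 0.6, adjusted 0.9429). Its lowest value was 0.306, in 24M replicate 3. Without that library the log2 difference of this ratio was 0.07 and that of Pde6g to the catalytic genes -0.06. On the authors' CPM with all 16 libraries these ratios stood at -0.32 and -0.04.

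Across the 16 libraries the PDE6 genes moved together and Cnga1 moved against Pde6g. On log2 CPM, Pearson's r was 0.740 for Pde6a with Pde6b (permutation p = 0.0011, adjusted 0.0056 over 10 pairs; Spearman's rho 0.765, p = 8.9e-04) and 0.771 for Pde6b with Pde6g (permutation p = 5.9e-04, adjusted 0.0056; rho 0.788, p = 4.9e-04). For Pde6a with Pde6g it was 0.603 (permutation p = 0.012, adjusted 0.031, rho 0.585, p = 0.019). For Pde6g with Cnga1 it was -0.679 (permutation p = 0.0018, adjusted 0.0061, rho -0.609, p = 0.014). With the 2 libraries left out whose first gene lay farthest from its median, r was 0.781, 0.756, 0.564 and -0.528 in that order. The channel subunits did not pass this test with each other (r = -0.340, permutation p = 0.2, rho -0.424, p = 0.1).

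Taking the mean of its age from each value shows the relations within ages. The permutations moved these centred values freely across ages. Centring ties the values of an age together, so the p-values of this paragraph for centred values can be too small. Within ages r was 0.912 for Pde6b with Pde6g (permutation p = 1e-05, the smallest the permutations can give, adjusted 5.0e-05, rho 0.876). It was -0.864 for Pde6g with Cnga1 (permutation p = 4.0e-05, adjusted 1.3e-04, rho -0.771) and -0.885 for Pde6b with Cnga1 (permutation p = 1e-05, adjusted 5.0e-05, rho -0.903), a pair that over all libraries had stood at -0.312 (permutation p = 0.24). The channel subunits stood at -0.673 within ages (permutation p = 0.0043, adjusted 0.011, rho -0.629). Pde6a with Pde6b stood at 0.423 (permutation p = 0.1, adjusted 0.11, rho 0.374) and did not pass within ages. The difference from their r of 0.740 over all libraries was not tested. No batch is named in the labels, so no value within a batch could be given.

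A measure of the libraries moved with these genes. The length slope of a library is how far its log2 CPM, centred on each gene's mean, changes with each doubling of transcript length, so that a library with a high slope holds relatively more of the long transcripts. It averaged -0.0292 ± 0.011 at 3M and 0.0032 ± 0.0607 at 24M (SD, n = 4), with 24M replicate 3 lowest at -0.0814 and 18M replicate 3 highest at 0.0839. Pde6g had r = -0.922 with the slope (permutation p = 1e-05, adjusted 5.0e-05 over 5 genes, rho -0.888, p = 2.0e-05, -0.908 without the 2 farthest libraries), Pde6b -0.693 (permutation p = 0.0028, adjusted 0.0066, rho -0.703, p = 0.003, -0.722) and Cnga1 0.654 (permutation p = 0.004, adjusted 0.0066, rho 0.635, p = 0.0097, 0.597). Pde6a stood at -0.485 (permutation p = 0.056, rho -0.524, p = 0.039) and Cngb1 at -0.376 (permutation p = 0.15, rho -0.388, p = 0.14). The members' mean transcript lengths were 4578 bases for Pde6a, 2973 for Pde6b, 1416 for Pde6g, 2542 for Cnga1 and 5169 for Cngb1. Among the members the sign of r did not follow these lengths. Slope and levels come from the same log2 CPM, so part of r is built in.

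With the regression on the slope removed, none of the 10 pairs passed at an adjusted p of r. Pde6a with Pde6b, at r = 0.640 (permutation p = 0.0074, adjusted 0.074), passed by rho (0.753, permutation p = 0.0011, adjusted 0.011). Pde6g with Cnga1 stood at -0.257 (permutation p = 0.34, rho -0.194, p = 0.47). With the slope as a covariate in edgeR, Pde6b had a log2 fold change of -0.19 at 24M (adjusted p = 0.046) and Cnga1 of -0.60 (adjusted p = 0.039), where 1394 genes, 11.4%, were called.

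**Figure D4:**
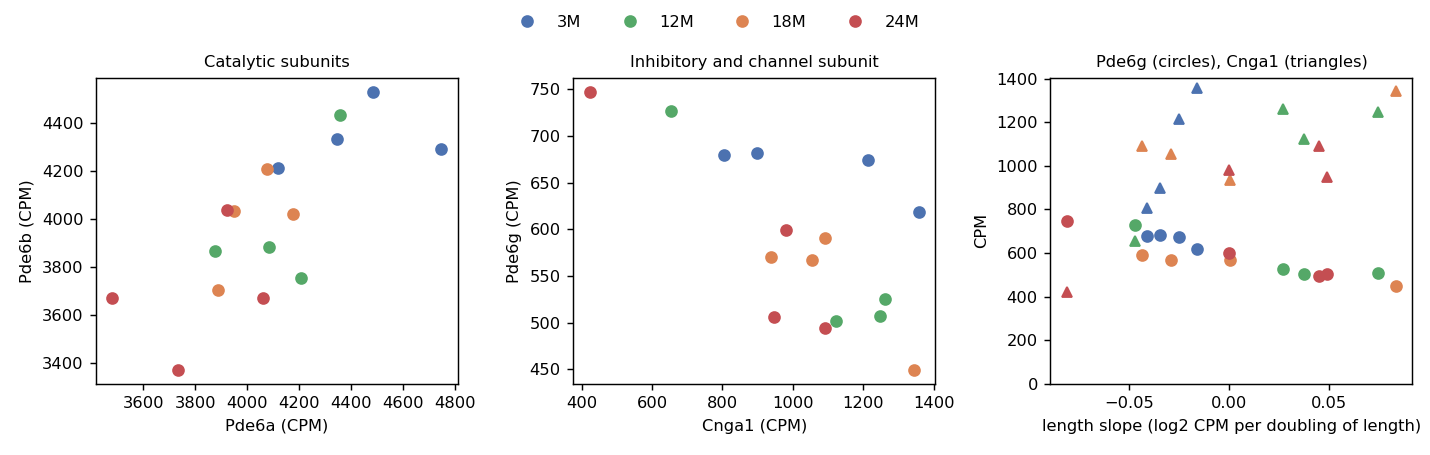
Levels of the genes against each other and against the length slope in 16 libraries, coloured by age. Left: Pde6b against Pde6a (CPM); middle: Pde6g against Cnga1 (CPM); right: Pde6g (circles) and Cnga1 (triangles) in CPM against the length slope (log2 CPM per doubling of length). The 2 libraries with Cnga1 under 700 CPM have the highest Pde6g and the 2 lowest slopes.

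By Pearson's r of log2 CPM over the 16 libraries, the genes most like Pde6a were Ywhae (0.896), Ano2 (0.895) and Gnb1 (0.883), the last being the rod transducin beta subunit. Those most like Pde6b were Chchd10 (0.944), Dnaja4 (0.944) and Drc3 (0.942). Pde6g was closest to Otub1 (0.983), Dnajb12 (0.981) and Gpx4 (0.978), and Cnga1 to Hsp90aa1 (0.990), Sec62 (0.987) and Usp47 (0.987). Cngb1 had lower values, with Baz2a (0.878), Morn1 (0.841) and Tulp1 (0.815). These are descriptions over libraries that differ in depth and length slope, and all genes of a library share its depth and slope. The part of these in the values was not tested.

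Upstream and downstream of the members, the other genes of rod transduction showed a few calls. Of 14 such genes tested, edgeR called 2 lower and none higher at 24M, where 1.6% of genes were called lower, and 9 had a negative log2 fold change, with a median of -0.142 against 0.011 over all genes. Pdc, phosducin, which binds the transducin beta and gamma subunits, fell from 2099 ± 293 CPM to 1109 ± 163 (SD, n = 4; a log2 change of -0.92, SE 0.133, edgeR adjusted p = 0.00041, no overlap). Gngt1, the rod transducin gamma subunit, fell from 1175 ± 82.7 CPM to 861 ± 78.3 (log2 fold change -0.45, SE 0.115, edgeR adjusted p = 0.038, no overlap). In the linear fit edgeR called 4 lower, these 2 with Rcvrn, the calcium sensor recoverin (-0.0191 per month, adjusted p = 0.037), and Gnb1 (-0.0162 per month, adjusted p = 0.046). The 2 guanylate cyclases that make cGMP in rods, Gucy2e and Gucy2f, stood at 0.09 (SE 0.090, adjusted p = 0.7659) and 0.10 (SE 0.204, adjusted p = 0.9125) on the log2 scale at 24M.

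No gene of the 2 lists closest to the members was called in any of the 7 tests. The 11 genes for folding, lipid modification and transport of PDE6 had a median log2 fold change of -0.055 at 24M, with 8 of 11 under 0. The 2 lowest among them were Aipl1, the PDE6 chaperone, at -0.33 (SE 0.123, adjusted p = 0.1918) and Arl3, which releases lipidated cargo, at -0.34 (SE 0.119, adjusted p = 0.1585). Rpgr, Pggt1b and Rce1 lay above 0, at 0.236, 0.145 and 0.022. The 12 genes for channel partners and rod ion transport, such as the exchanger Slc24a1 and the rim proteins Prph2 and Rom1, had 11 of 12 under 0 and a median of -0.078. Of 18 genes of other phosphodiesterases and cGMP targets, 8 were tested and 1 was called. Over all genes edgeR called 4.25% at 24M and 2.64% at 18M. Pde4b, a cAMP phosphodiesterase, rose from 5.85 ± 1.36 to 10.3 ± 1.65 CPM at 24M (SD, n = 4; a log2 change of 0.81, SE 0.158, edgeR adjusted p = 0.0056) and stood at 0.70 at 18M (adjusted p = 0.025). Its 3M level lay near the filter of 5 CPM in 4 libraries, which it could pass through the ages where it was higher.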

How the data were processed

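RNA-seq of 16 libraries of sorted rods, 4 per age, was used. Per the labels' protocols, a stranded total RNA kit with an input of 4 ng and 13 PCR cycles was used, and read pairs were 125 bases long. The authors deposited estimated counts per transcript, which need not be whole. Further deposited tables hold CPM signal per gene, normalized CPM signal of 11826 genes in 13 libraries, and comparisons with log2 differences, an F score and p-values, per the file headers. The submitters' processing notes list limma 3.32.2, kallisto 0.42.5, edgeR 3.13.9 and the build GRCm38.p4 without their roles. The sources used here do not give the strand setting of the counting.

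From these, 111896 of 113468 transcripts were matched to GENCODE vM21 genes of GRCm38, and the rest held 0.73% to 1.08% of a library's counts. Estimated counts were summed to 45038 genes, rounded to whole numbers and tested with the quasi-likelihood test of edgeR 4.0.16 (R 4.3.3) with TMM factors on all 16 libraries, a mean per age, in genes that reached 5 CPM in 4 or more libraries. Another fit had age in months as its linear term. Genes at a Benjamini-Hochberg value under 0.05 over the 12177 genes are called. Levels are TMM-scaled CPM, and TPM used annotated transcript lengths. The common biological coefficient of variation was 0.169. Data for 24M against 3M were simulated over 12177 genes, each with this same common spread. There the edgeR test recovered 24% of changes of 0.5 and 97% of changes of 1 on the log2 scale, with 7 false calls. The SE of the members at 24M ran from 0.084 for Cngb1 to 0.268 for Cnga1, so these rates are not those of single members.

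Ratios and transcript shares were tested by exact two-sided permutation over libraries, and relations between genes by 100000 permutations (scipy 1.17.1). The share of a transcript depends on how the counting divides reads among overlapping models. Intervals cover the spread between these libraries, and without molecular identifiers PCR copies count as reads. Alternatives were DESeq2 1.42.0, limma 3.58.1 voom (plain, or with sample quality weights), size factors of DESeq2 in the edgeR test, no low-value filter or one at 1 CPM, the authors' normalized CPM in limma (pseudocount 0.5 or 2), the 13 libraries, compared ages alone, a replicate block, the length slope, and each library left out. The tests per transcript and of usage, ratios and shares without 24M replicate 3 and 12M replicate 4, and limma on log2(TPM + 1), were added after the data were seen. The members and gene lists were chosen with earlier results of these data known. The rule for named genes took the 5 members, up to 4 called genes of each list, and the 3 genes most correlated with each member. Aipl1, Arl3, Rpgr, Pggt1b, Rce1, Slc24a1, Prph2, Rom1, Gucy2e, Gucy2f and the cone genes fall outside it, chosen with their values known. Sequences are from GENCODE transcripts and RefSeq promoters.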

Additional observations from a re-analysis of the deposited data

Results flagged for a closer look

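In 8 of 76 groups of 4 libraries, 1 library stood so far from the nearest other that the gap passed Dixon's 95% critical value as a share of the group's range, which chance gives in about 1 in 20 groups. Pde6g gave 3 of them, the lowest 3M library at 618.2 CPM, the highest 12M library (replicate 4) at 726.6 CPM and the lowest 18M library (replicate 3) at 449.3 CPM. At 3M, replicate 3 had the lowest share of Pde6b-201, 78.6%, and the highest share of Pde6b-203, 17.18%, which are parts of 1 whole. The share of Cngb1-202 was lowest in 12M replicate 4 at 70.55%, and that of Pde6g-201 was highest in 18M replicate 2 at 58.99%. The ratio of Cnga1 to Cngb1 counts was lowest in 24M replicate 3 at 0.3064.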

How the results depend on the processing

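Beside the edgeR test with no member called, the count of members called at 24M against 3M was 2 by DESeq2, 3 with quality weights, 2 on the authors' normalized CPM with either pseudocount, 3 in 13 libraries and 2 with the length slope as a covariate. At 12M it was 2 with quality weights, 1 on the authors' CPM with either pseudocount and 1 in 13 libraries. For any age it was 4 with quality weights, 1 with either pseudocount and 2 in 13 libraries, and for the linear term 2 by DESeq2, 2 with quality weights and 1 with either pseudocount. It was 0 with any library left out. Genes called at 24M numbered 518, against 3311 with quality weights, 2519 and 2540 on the authors' CPM, 2843 in 13 libraries and 1394 with the slope. On log2(TPM + 1) 204 were called at 24M, 36 at 12M, 113 at 18M, 148 for any age, 238 for the linear term and 4 between 24M and 18M. At 12M 169 were called, against 313 by DESeq2, 5827 with weights, 3924 and 3944 on the authors' CPM, 4623 in 13 libraries, 98 from the compared ages alone, 532 without 12M replicate 4, 104 without 3M replicate 3 and 108 without 12M replicate 3. At 18M 322 were called, against 528 by DESeq2, 1110 with weights, 596 and 605 on the authors' CPM, 705 in 13 libraries, 663 with the slope, 510 without 12M replicate 4, 202 without 3M replicate 3 and 211 without 3M replicate 2. For any age 344 were called, against 665, 5434, 3082, 3102, 3492 and 881 by the same 6 alternatives, 540 without 12M replicate 4, 209 without 3M replicate 2 and 221 without 3M replicate 3. For the linear term 584 were called, against 1047 with weights, 897 and 904 on the authors' CPM, 1033 in 13 libraries, 1168 with the slope and 372 without 3M replicate 2. Between 18M and 12M 1 was called, against 12 by DESeq2, 2340 with weights, 233 and 261 on the authors' CPM, 223 in 13 libraries, 21 with the slope, 0 from the compared ages alone and 2 without 24M replicate 1. Between 24M and 18M none was called, against 35 by DESeq2, 1 by voom, 580 with weights, 20 and 21 on the authors' CPM, 12 in 13 libraries, 78 with the slope and 1 without 12M replicate 4. The cause of these differences was not tested.

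On log2(TPM + 1), signs turned for Pde6a (0.0654), Pde6b (0.0278) and Cngb1 (0.0789) at 12M, for Pde6a (0.0143) and Pde6b (0.0212) at 18M, and for Cngb1 at 24M (0.1737) and in the linear term (0.0081). On the other scales signs turned for fold changes reported near 0. Cnga1 at 12M was -0.0158 by voom, -0.0062 with a minimum of 1 CPM, -0.0183 with no filter and -0.3915 with the slope, and from -0.1105 to 0.1789 with a library left out. At 18M it was -0.0224 on the authors' CPM with either pseudocount, -0.0569 in 13 libraries and -0.1552 with the slope, and from -0.0645 to 0.1855 with a library left out. Cngb1 at 18M was -0.0230 on the authors' CPM with either pseudocount and from -0.0155 to 0.0826 with a library left out. At 24M against 3M the log2 ratio of Pde6g to both catalytic genes was -0.0412 on the authors' CPM and -0.0614 in 13 libraries and without 24M replicate 3 and 12M replicate 4, and that of Cnga1 to Cngb1 was 0.0688 in the last 2. With a library left out these ran from -0.0614 to 0.0825 and from -0.4542 to 0.0688, that of Pde6a to Pde6b from -0.0166 to 0.0583, and the Cnga1-201 share difference from -0.0931 to 1.5834 points. The number of related pairs by r was 0 after the length slope was removed, with Pde6a and Pde6b still passing by rho, where r was 0.438 for Pde6a with Cnga1, 0.259 for Pde6b with Cnga1 and -0.026 for Pde6g with Cngb1.

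The deviations of same-numbered libraries of different ages correlated over 0.1 in 11 of 24 pairs (range -0.744 to 0.726). Correlations this large in both directions cannot decide if the replicate number pairs libraries. With a replicate block 444 genes and 0 members were called at 24M. Values of single genes, shares and relations and the counts over all genes were recomputed. Of these, 783 kept direction and side of the threshold, and 60 moved (counts over all genes). A further 28 passed the threshold only under the alternative, 5 no longer passed (relations between genes) and 30 turned. Every recomputed share left out a 3M or 24M library. With 3 against 4 libraries the smallest exact permutation p is 0.0571, so no share could pass. The shares' side of the threshold was thus fixed beforehand, and only their direction could change. In the simulation, with the same spread for every gene, edgeR recovered 24% of changes of 0.5 on the log2 scale over all genes.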
